A study of Mus musculus with 8 samples.

Results

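The miR-30 family was followed through 8 mature arms, chosen by name from the deposited tables: the 5 guide arms mmu-miR-30a-5p, mmu-miR-30b-5p, mmu-miR-30c-5p, mmu-miR-30d-5p and mmu-miR-30e-5p, and the 3 passenger arms mmu-miR-30a-3p, mmu-miR-30e-3p and mmu-miR-30c-2-3p, written below without the mouse prefix. They are 8 of the 1281 mature miRNAs in the tables and cover 9 of the 1418 entries, since miR-30c-5p has an entry for each of its hairpins, which were summed. Calvaria, the flat skull bones (parietal and frontal), came from newborn female C57/B6 mice positive for Prrx1-Cre, a Cre driven by a limb and skull mesenchyme promoter, at 2 to 3 days of age. No Cre-negative group is analysed here. These bones were briefly digested with collagenase and trypsin and gave 3 small RNA libraries, and the labels do not state whether each is a separate animal. MC3T3 E1 sc4, a subclone of a mouse calvarial pre-osteoblast line with the strain label C57BL/6, was used at passage 10 to 15 and grown before induction without ascorbic acid, and later in medium with ascorbic acid and β-glycerol phosphate. Its libraries are titled day 0, 6, 10, 17 and 24, with 1 library per day, each pooling the RNA of 3 cultures. Without a second library on any day, p-values measure the spread between these libraries, which may be technical. In the comparisons with calvaria the 5 days form 1 group, so the MC3T3 spread there includes the change over days. It is not an error between replicates of a day.

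A miRNA hairpin is cut by Drosha and Dicer into a duplex, of which the guide arm is loaded into Argonaute and the passenger arm is mostly degraded. The guide arm finds transcripts mainly through its seed, bases 2 to 8, so arms with the same seed have largely shared targets. The miR-30 guides are known as restraints on osteoblast differentiation that target Runx2, the master transcription factor of osteoblasts, and Smad1, which carries the BMP signal. miR-30c in particular belongs to a group of miRNAs reported to target Runx2 together.

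Sequences were found in RefSeq (build GRCm38.p6, the NCBI name for mm10) for 6 of the 8 arms. They are shown because the seed defines the family and because single bases separate its members. The seed is in capitals, and each sequence runs 5′ to 3′.
miR-30a-5p: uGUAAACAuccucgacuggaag
miR-30e-5p: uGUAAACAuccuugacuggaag
miR-30c-5p: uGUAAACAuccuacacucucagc
miR-30a-3p: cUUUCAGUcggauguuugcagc
miR-30e-3p: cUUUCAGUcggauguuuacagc
miR-30c-2-3p: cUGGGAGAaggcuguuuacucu

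These 3 guides had 1 seed in common. Counted from 1 at the 5′ end, miR-30e-5p differs from miR-30a-5p by C13U alone, and miR-30e-3p from miR-30a-3p by G18A alone. miR-30c-5p differs from miR-30a-5p at 5 of the 22 bases compared (C13A, G14C, G18C, G19U and A20C). The passenger arms fall into 2 seeds, that of miR-30a-3p with miR-30e-3p and that of miR-30c-2-3p. Only 19 of the 72 entry values of these arms were whole numbers (within 0.005), so the estimated counts had been divided among similar features. miR-30c-2-3p was the exception, with whole counts in all 8 libraries, while miR-30e-5p had none. How reads were divided is not stated in the labels, so levels of arms a single base apart are uncertain to that extent.

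The hairpins are shown with both arms in capitals, as the source of the 5p and 3p reads compared in the later ratios.
Mir30a: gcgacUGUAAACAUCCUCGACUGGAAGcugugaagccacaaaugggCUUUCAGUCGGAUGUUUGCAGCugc
Mir30c-2: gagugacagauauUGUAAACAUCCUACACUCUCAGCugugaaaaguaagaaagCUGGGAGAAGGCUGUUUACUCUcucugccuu
Mir30e: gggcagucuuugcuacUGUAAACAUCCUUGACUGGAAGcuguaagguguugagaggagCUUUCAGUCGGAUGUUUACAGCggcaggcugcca

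Mir30a lies at chr1:23272269-23272339 and Mir30c-2 at chr1:23291701-23291784, both on the plus strand, with 19361 bases between them. In GENCODE M21, Mir30c-2 lies within an exon of the lincRNA Gm27028, and no other gene overlaps Mir30a. Mir30e (chr4:120772606-120772697) and Mir30c-1 (chr4:120769534-120769622) lie on the minus strand, 2983 bases apart, in introns of Nfyc, which encodes a subunit of the NF-Y transcription factor. miR-30c-5p can therefore come from either locus: its mature sequence is the same at both hairpins, and its reads were divided almost equally between their entries. The files also list miR-30f, from the strand opposite to Mir30e, at 0 counts in all 8 libraries, which at the deepest allows up to 0.744 RPM, a count scaled to the library total. miR-384-5p, which carries the miR-30 guide seed, had 1 count in calvaria 1, 1 in calvaria 3 and 0 in the other libraries.

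Library totals were 1183011 to 2023036 counts in calvaria and 2742368 to 4031962 counts in MC3T3. RPM is the deposited count of an arm scaled by the total miRNA count of its library. Arms are 22 or 23 bases long, so no correction for length was made, and ligation preference can still set the level of one arm against another. The day 0 library stood apart: 45.55% of its counts were miR-21a-5p, a share of 11.23% to 20.14% in the MC3T3 libraries after it, which lowers the RPM of every other miRNA at day 0. Trimmed mean of M-values (TMM) factors, which correct for such a shift, ranged from 0.7159 at day 0 to 1.1568 at day 6 over the 8 libraries.

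The guide arms were abundant in bone and in the cell line. Every one of the 8 arms had at least 90 counts in every library, so none was tested only through a group where it was high. In calvaria the highest was miR-30d-5p with 10363 ± 158 RPM (SD, n = 3), before miR-30a-5p with 9004 ± 190, miR-30e-5p with 3530 ± 670, miR-30c-5p with 2111 ± 251 and miR-30b-5p with 880.4 ± 124. Below them came miR-30a-3p with 132 ± 17.0 RPM, miR-30e-3p with 121 ± 20.2 and miR-30c-2-3p with 82.8 ± 14.2. Neighbours in this order did not overlap over the 3 libraries, except miR-30a-3p and miR-30e-3p.

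In MC3T3 miR-30a-5p stood first on every day, with 19372 ± 6125 RPM (SD over 5 days), before miR-30d-5p with 10033 ± 641, miR-30e-5p with 3345 ± 808 and miR-30c-5p with 2269 ± 768. The ranges of miR-30e-5p and miR-30c-5p overlapped over the days, though miR-30e-5p was the higher on each day. Next came miR-30a-3p with 275 ± 71.9 RPM, miR-30b-5p with 259.5 ± 93.8 and miR-30c-2-3p with 171 ± 94.9, with overlapping ranges over the days. Within a library, miR-30c-2-3p lay below miR-30a-3p and miR-30b-5p on each day after day 0. At day 0 miR-30c-2-3p had 335 RPM, beside 315 RPM for miR-30a-3p and 123 RPM for miR-30b-5p. The order of miR-30a-3p and miR-30b-5p was not the same on all days. Last came miR-30e-3p with 64.9 ± 32.9 RPM. The other arms of these hairpins were scarce: miR-30d-3p had 10.14 to 20.76 RPM, miR-30b-3p 4.46 to 12.36 and miR-30c-1-3p 0.85 to 6.02 over the 8 libraries.

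**Figure D1:**
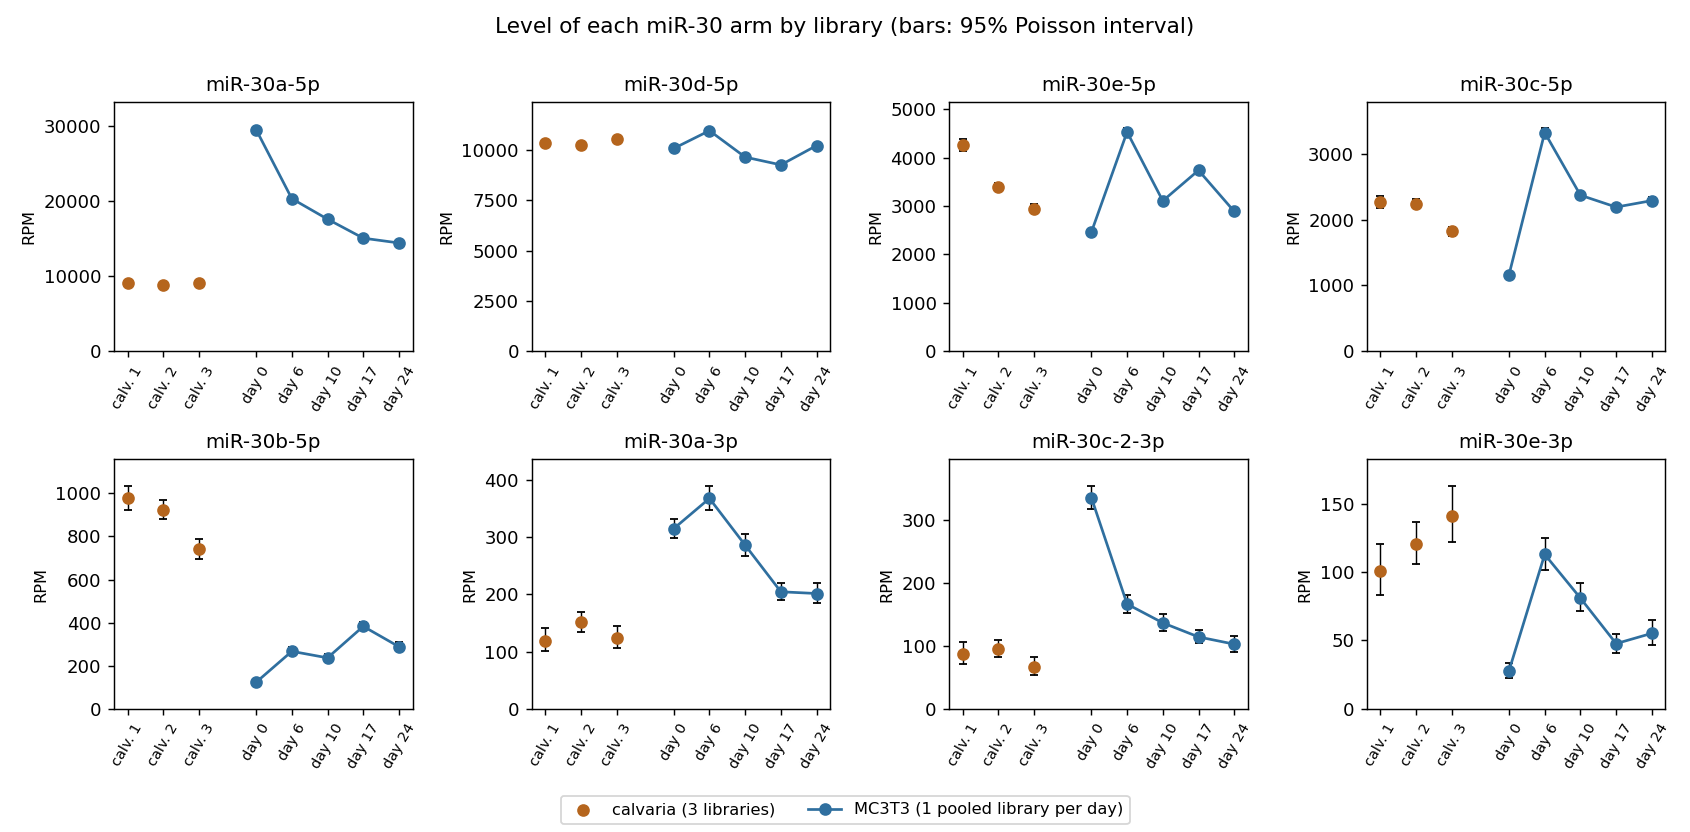
RPM of each of the 8 arms by library, with the 3 calvaria libraries at the left and the 5 MC3T3 days, 1 pooled library each, at the right of each panel. Bars are 95% Poisson intervals of the count. miR-30a-5p, miR-30a-3p and miR-30c-2-3p lie below every MC3T3 day in calvaria, miR-30b-5p lies above every day, and the other 4 arms overlap.

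The first question was how bone tissue differs from the cultured line. miR-30b-5p was higher in calvaria. miR-30a-5p, its passenger miR-30a-3p and miR-30c-2-3p were lower there. The guides miR-30c-5p, miR-30d-5p and miR-30e-5p and the passenger miR-30e-3p did not pass the test. The comparison set 3 calvaria libraries against 5 MC3T3 libraries in the edgeR quasi-likelihood test with TMM factors, adjusted by Benjamini-Hochberg over all 471 mature miRNAs tested, at a threshold of 0.05. Of the 8 arms 4 were called, against 64.1% of all miRNAs tested, so the share of miR-30 arms called was no higher than the background. By direction, 1 of 8 was called higher in calvaria, against 35.5% of all, and 3 of 8 lower, against 28.7%. The filter could be met by 1 material alone, so the shares over all include miRNAs near 0 in the other material. They are therefore not a like background for arms present in every library. The median log2 difference of the 8 arms was -0.22, beside 0.06 over all miRNAs tested.

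miR-30a-5p, the most abundant guide of the line, had 9095, 8786 and 9130 RPM in the 3 calvaria libraries, against 29507, 20310, 17582, 15052 and 14411 RPM in MC3T3 at days 0, 6, 10, 17 and 24. All 3 calvaria libraries lay below all 5 MC3T3 libraries. Its log2 difference was -1.38 ± 0.35 (SE; adjusted p = 0.00555). Against days 17 and 24 alone, where 71.4% of all miRNAs tested and 6 of the 8 arms were called, it was -1.01 ± 0.12 (adjusted p = 3.39e-04).

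miR-30a-3p, the passenger arm of the same hairpin, had 119.2, 151 and 124.7 RPM in calvaria, against 315.1, 367.9, 286.2, 204.7 and 201.7 RPM in MC3T3 at days 0, 6, 10, 17 and 24. Its groups did not overlap either, and the log2 difference was -1.28 ± 0.29 (adjusted p = 0.00275). Both arms of Mir30a were thus lower in calvaria by similar amounts.

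miR-30c-2-3p, the passenger arm of the neighbouring Mir30c-2 hairpin, had 87.07, 94.41 and 67.00 RPM in calvaria, against 334.8, 166.1, 136.2, 114 and 102.5 RPM in MC3T3 from day 0 to day 24. Calvaria lay below every MC3T3 day, by a small margin against day 24. The log2 difference was -1.36 ± 0.51 (adjusted p = 0.0359), and it was -0.73 ± 0.22 (adjusted p = 0.0105) without day 0. The call was lost with DESeq2 size factors (adjusted p = 0.0642), and also without day 6 (0.0551) in the edgeR test. It was lost as well without calvaria 1 (0.0836), 2 (0.100) or 3 (0.131), in fits that also lowered the filter to 2 libraries, with log2 differences of -1.41, -1.44 and -1.25 in that order. Over all alternatives the adjusted p ran from 0.00757 to 0.131.

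miR-30b-5p moved the other way, with 976.3, 924.5 and 740.5 RPM in calvaria, against 123.2, 266.9, 236.6, 382.8 and 288.2 RPM in MC3T3 at days 0, 6, 10, 17 and 24. Even the lowest calvaria library stood above the highest MC3T3 day. The log2 difference was 1.60 ± 0.27 (adjusted p = 3.30e-04). It was 1.09 ± 0.18 (adjusted p = 0.00167) against days 17 and 24, and 2.02 ± 0.32 (adjusted p = 8.69e-04) against days 0 and 6. The scarce other arm of its hairpin, miR-30b-3p, was not called, at 0.275 ± 0.266 (adjusted p = 0.379), and its RPM ranges overlapped. The log2 ratio of miR-30b-5p to miR-30b-3p was higher in calvaria by 1.38.

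miR-30d-5p, the other abundant guide, was nearly level across the study in RPM, with 10332, 10223 and 10534 RPM in calvaria, against 10077, 10961, 9647, 9260 and 10221 RPM in MC3T3 from day 0 to day 24. On the TMM scale used for the test it was less level, at 9389 to 9619 CPM (TMM-scaled RPM) in calvaria, and 14077 CPM at day 0 and 9144 to 11183 CPM on later days in MC3T3. The RPM ranges overlapped, and the log2 difference was -0.18 ± 0.20 (adjusted p = 0.441). Of the 471 miRNAs tested, 92.1% had a larger difference in size. A p above the threshold does not show that the levels were equal, and the value depended on the scaling, being 0.05 under library totals, while upper quartile factors called it lower at -0.63 (adjusted p = 0.0243).

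miR-30e-5p had 4258, 3393 and 2939 RPM in calvaria, against 2459, 4531, 3107, 3738 and 2888 RPM in MC3T3 from day 0 to day 24. These ranges overlapped, at a log2 difference of -0.10 ± 0.20 (adjusted p = 0.676), and upper quartile factors called it lower in calvaria (-0.55, adjusted p = 0.0163). miR-30c-5p had 2270, 2242 and 1822 RPM in calvaria, against 1161, 3326, 2373, 2192 and 2291 RPM in MC3T3. Its ranges overlapped as well, and the difference was -0.26 ± 0.22 (adjusted p = 0.331). Against days 17 and 24 alone miR-30c-5p was lower in calvaria, by a log2 difference of -0.39 ± 0.15 (adjusted p = 0.0461), and so it was against all days with upper quartile factors (-0.70, adjusted p = 0.0099).

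miR-30e-3p, the passenger arm of Mir30e, had 100.6, 120.4 and 141.1 RPM in calvaria, against 27.78, 113, 81.01, 47.71 and 55.24 RPM in MC3T3 at days 0, 6, 10, 17 and 24. Day 6 reached into the calvaria range and the other days lay below it. The log2 difference of 0.76 ± 0.31 missed the threshold (adjusted p = 0.0515). It passed against days 17 and 24 (0.93 ± 0.25, adjusted p = 0.0145) and without day 6 (1.02 ± 0.30, adjusted p = 0.0149). The RPM ranges of 4 of the 8 arms did not overlap between the materials, against 61.4% of all miRNAs tested. By direction, 1 of 8 lay above MC3T3 in every calvaria library, against 39.5% of all, and 3 of 8 below, against 21.9%. TMM-scaled CPM also left 4 of 8 without overlap, against 63.5% of all (36.3% above and 27.2% below). Upper quartile factors called 7 of the 8 arms, all but miR-30e-3p, against 70.9% of all. Of these arms 6 were lower in calvaria, where 192 of the 471 miRNAs were called lower and 142 higher.

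**Figure D2:**
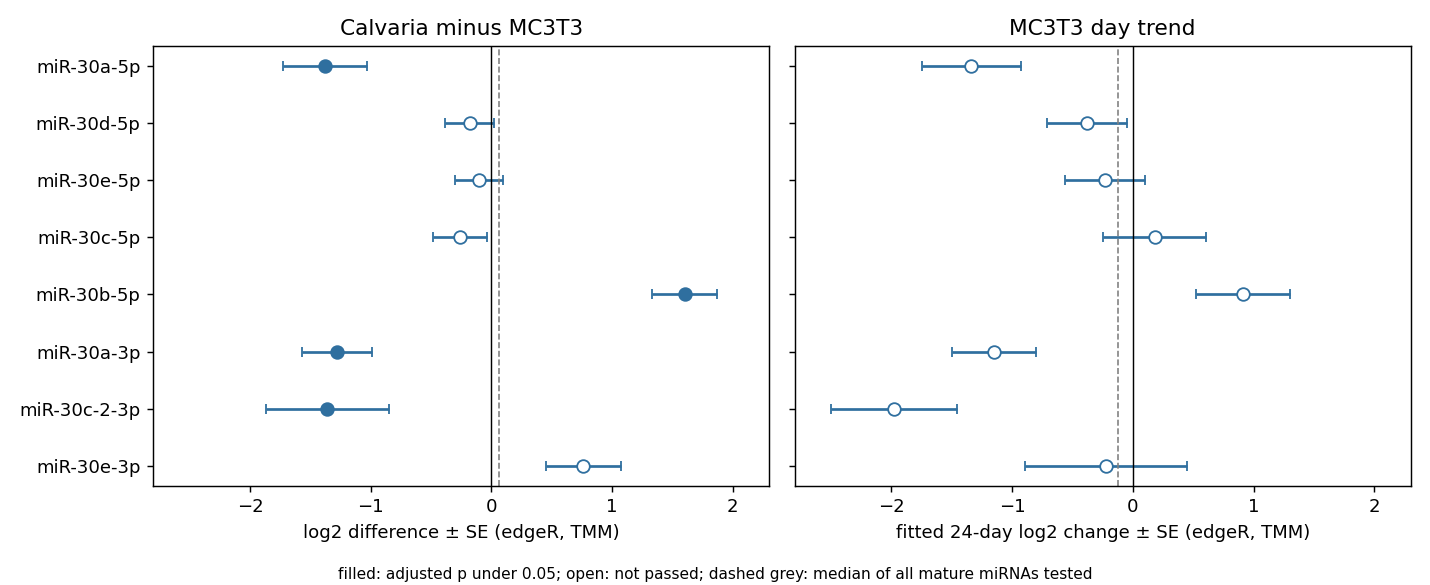
Log2 difference of calvaria minus MC3T3 (left) and fitted log2 change over 24 days in MC3T3 (right) for each arm, with standard errors; filled points passed an adjusted p of 0.05 and the dashed line is the median of all miRNAs tested. miR-30b-5p lies to the right at 1.60 and miR-30a-5p, miR-30a-3p and miR-30c-2-3p to the left at -1.28 to -1.38 in the left panel; no arm passed in the right panel.

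Calvaria hold many cell types, and markers of several stood apart between the materials. Of all 471 miRNAs tested, 39.5% had a higher RPM in every calvaria library than on any MC3T3 day, the share to set beside the counts below. Both endothelial miRNAs summed to 9028 to 20323 RPM in calvaria, against 6.20 to 19.0 RPM in MC3T3, and both were higher in every calvaria library. The 8 blood cell miRNAs summed to 312 to 464 RPM in calvaria, against 38.9 to 111 RPM in MC3T3, where miR-144-5p was at 0, and 7 of 8 were higher in every calvaria library. The remaining blood cell miRNA, miR-486-5p, was called lower in calvaria (log2 -0.805 ± 0.272, adjusted p = 0.0236). The 4 cartilage miRNAs summed to 61235 to 111611 RPM in calvaria, against 18218 to 28775 RPM in MC3T3, and 4 of 4 were higher in every calvaria library. Striated muscle miRNAs (6 listed, miR-208b-3p at 0 throughout) summed to 283 to 642 RPM in calvaria and 213 to 574 RPM in MC3T3. Of these 3 of 6 were higher in every calvaria library, which is near the share over all miRNAs. The 3 nervous system miRNAs summed to 599 to 682 RPM in calvaria and 326 to 460 RPM in MC3T3, where miR-124-3p was at 0, and 2 of 3 were higher in every calvaria library. That list is too short to set against the share over all. In the edgeR test neither miR-9-5p (log2 0.681 ± 0.347, adjusted p = 0.109) nor miR-128-3p (0.519 ± 0.294, adjusted p = 0.141) was called. The 4 epithelial miRNAs summed to 55.0 to 60.1 RPM in calvaria and 2.48 to 10.2 RPM in MC3T3, but only 1 of 4 was higher in every calvaria library. The 5 mesenchymal miRNAs, miR-199a, miR-214, miR-143 and miR-145 arms, were high in both, at 131924 to 145904 RPM in calvaria and 130003 to 187906 RPM in MC3T3, with 1 of 5 higher in every calvaria library. Among them miR-143-3p (log2 -1.10 ± 0.195, adjusted p = 5.25e-04) and miR-145a-5p (-1.28 ± 0.213, adjusted p = 3.32e-04) were called lower in calvaria. By the same test miR-199a-3p was called higher (0.508 ± 0.185, adjusted p = 0.0325). The part of these cell types in the miR-30 differences was not tested. In bulk RNA fewer cells of a type and less of an arm per cell cannot be told apart.

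Within a library, ratios between arms are free of the scaling, and 5 were compared between calvaria and MC3T3 with an exact two-sided permutation test over the 8 libraries. Its smallest possible p with 3 against 5 libraries is 0.0357, and p-values were adjusted over the 5 ratios. The guide miR-30a-5p outnumbered its passenger miR-30a-3p by 76.3, 58.2 and 73.2 to 1 in calvaria, against 93.6, 55.2, 61.4, 73.5 and 71.5 to 1 in MC3T3 from day 0 to day 24. The log2 ratio was 6.10 ± 0.21 (SD, n = 3) in calvaria and 6.13 ± 0.29 (n = 5) in MC3T3, a difference of -0.02 (exact permutation p = 1, adjusted p = 1). The ranges overlapped fully, while both arms differed between the materials in level.

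miR-30e-5p outnumbered miR-30e-3p by 42.3, 28.2 and 20.8 to 1 in calvaria, against 88.5, 40.1, 38.4, 78.3 and 52.3 to 1 in MC3T3 from day 0 to day 24. The log2 ratio differed by -0.94 on average, with overlapping ranges (exact permutation p = 0.107, adjusted p = 0.134). Over all 63 hairpins whose 5p and 3p arms both had 10 counts in every library, the ranges of this ratio did not overlap between the materials in 20.6%, lower in calvaria in 9.52% and higher in 11.1%. The median size of the difference there was 0.36.

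miR-30c-5p, which both hairpins can supply, outnumbered miR-30c-2-3p by 26.1, 23.7 and 27.2 to 1 in calvaria, against 3.47 to 1 in MC3T3 at day 0 and 20.0, 17.4, 19.2 and 22.4 to 1 at days 6, 10, 17 and 24. The difference of 0.88 in log2 ratio reached the smallest p the design allows (exact permutation p = 0.0357, adjusted p = 0.0595) and missed the threshold after adjustment. At that smallest p, passing after adjustment depends only on how many of the other ratios also reach it. The miss is therefore no result about this ratio alone. Most of the difference came from day 0, without which it was 0.38.

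The ratio of miR-30a-5p to miR-30e-5p, which differ by a single base, was 2.14, 2.59 and 3.11 in calvaria, against 12.0 in MC3T3 at day 0 and 4.48, 5.66, 4.03 and 4.99 at days 6 to 24. Its log2 difference was -1.15, with no overlap (exact permutation p = 0.0357, adjusted p = 0.0595). The ratio of miR-30d-5p to miR-30b-5p, guides of neighbouring hairpins, was 10.6, 11.1 and 14.2 in calvaria, against 81.8, 41.1, 40.8, 24.2 and 35.5 in MC3T3 from day 0 to day 24. Its log2 difference of -1.79 was the largest of the 5 ratios in size, again without overlap and with the same p and adjusted p. Without day 0 these differences were -0.88 and -1.55.

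**Figure D3:**
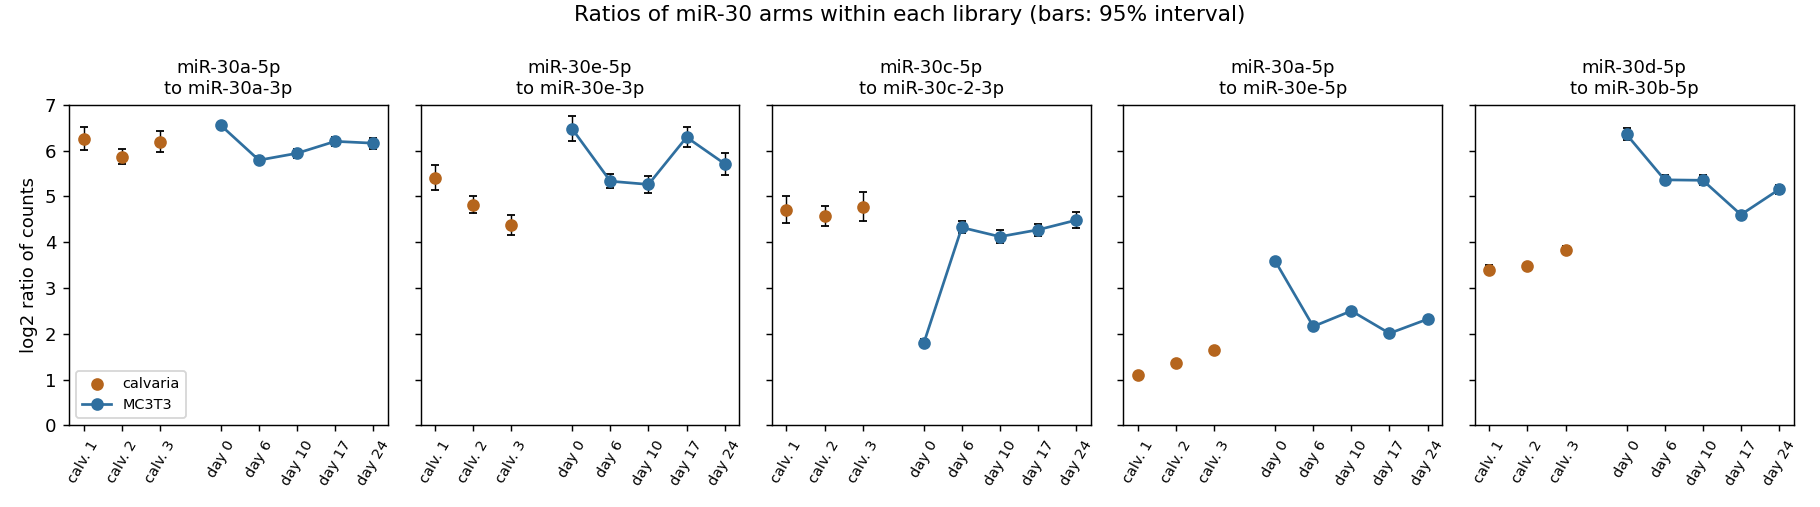
Log2 ratio of counts between the named arms in each library, with exact 95% binomial intervals, calvaria at the left and MC3T3 by day at the right of each panel. The ratio of miR-30a-5p to miR-30a-3p lies between 5.79 and 6.55 in all 8 libraries, while that of miR-30d-5p to miR-30b-5p lies at 3.40 to 3.83 in calvaria and 4.60 to 6.35 in MC3T3.

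The family total and its make-up followed from these levels. The 5 guides together held 2.69%, 2.56% and 2.52% of counts in calvaria, against 4.33%, 3.94%, 3.29%, 3.06% and 3.01% in MC3T3 from day 0 to day 24. miR-30a-5p supplied 34.8% ± 1.31 of the guide counts in calvaria (SD, n = 3), and 68.1% at day 0 and 47.9% to 53.4% at later days in MC3T3. miR-30d-5p supplied 40.1% ± 1.75 in calvaria, and 23.3% at day 0 and 27.8% to 34.0% at later days in MC3T3. miR-30b-5p made up 2.94% to 3.63% in calvaria and 0.284% to 1.25% in MC3T3. The leading guide was thus miR-30d-5p in each calvaria library and miR-30a-5p on each MC3T3 day.

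**Figure D4:**
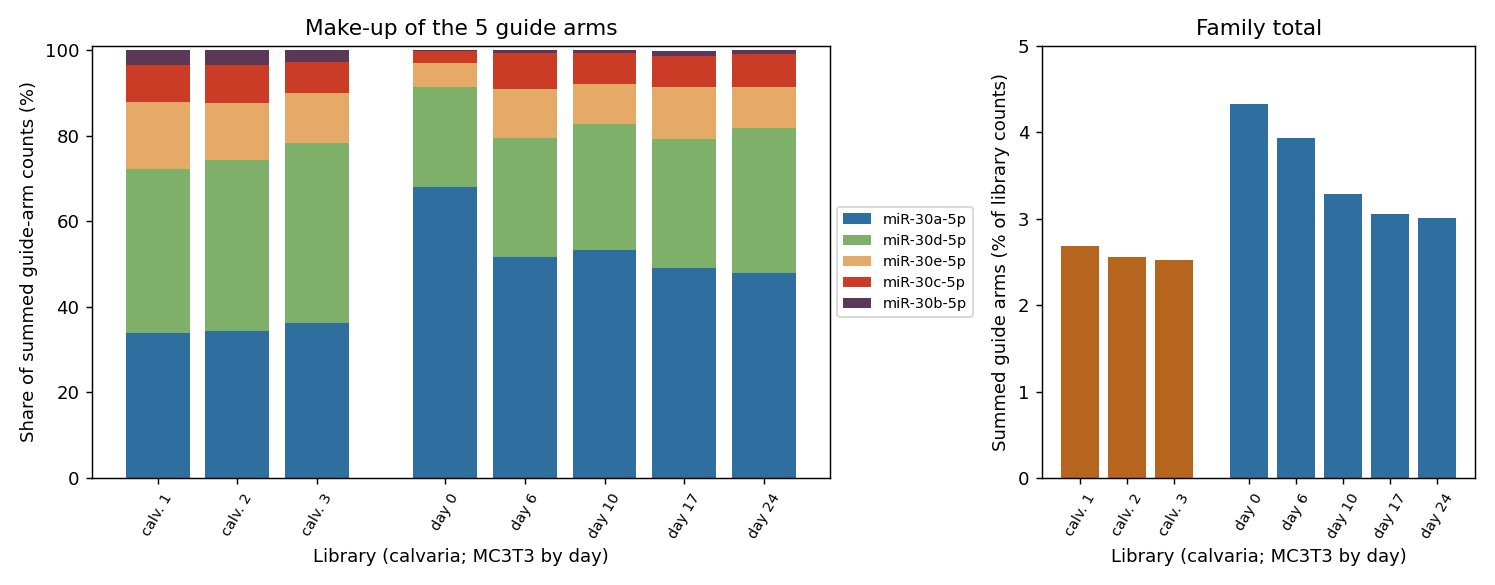
Share of each guide arm in the summed counts of the 5 guides (left, percent) and these summed counts as a percentage of the library (right), by library. miR-30a-5p fills 33.8% to 36.3% of the guide counts in calvaria and 47.9% to 68.1% in MC3T3, and the family total is highest at day 0, at 4.33%.

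The second question was how the arms moved with the titled day in MC3T3. No arm passed the linear trend: miR-30a-5p, miR-30a-3p, miR-30c-2-3p and miR-30d-5p had their highest TMM-scaled levels at day 0, while miR-30b-5p, miR-30c-5p and miR-30e-3p had their lowest there. The fit was an edgeR quasi-likelihood trend over the 5 libraries with 3 residual degrees of freedom, adjusted over 391 mature miRNAs, and the change is the slope times 24 days. Its error is the departure of the libraries from a straight line in day. A curved course therefore counts as error, and a miss does not show that an arm was steady. The fit called 0 of the 8 arms, against 2.3% of all miRNAs tested (1.02% rose and 1.28% fell). Of the 391, 91 (23.3%) had an unadjusted p under 0.05, among them miR-30a-5p, miR-30a-3p and miR-30c-2-3p. The DESeq2 Wald test also called 0 arms, where it called 33 of the 391 miRNAs. With limma 0 of the 391 miRNAs were called, so its 0 arms are no result about the family. The median change of the arms was -0.30, beside -0.12 over all miRNAs tested.

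miR-30c-2-3p had the largest fitted change of the arms, -1.98 ± 0.52 (SE; adjusted p = 0.0895). Its day 24 level was 0.306 of the day 0 level in RPM (95% interval 0.268 to 0.348), and its first step, to 0.496 (0.448 to 0.549) at day 6, was the steepest. miR-30a-5p had -1.34 ± 0.41 (adjusted p = 0.112), with day 24 at 0.488 (0.483 to 0.494) of day 0 in RPM. Both were lower at each later day in RPM, as were 2.05% of the miRNAs tested, while 0 of 8 arms were higher at each later day, against 4.35%. The last step of miR-30c-2-3p, from day 17 to day 24, lay within counting error, at 0.899 (0.772 to 1.05). After TMM scaling over the 5 days miR-30a-5p stood at 39911, 17125, 16867, 13873 and 14292 CPM from day 0 to day 24, so that the change lay mostly between days 0 and 6. Without day 0 the fitted change was -0.43 ± 0.34 for miR-30a-5p (adjusted p = 0.451) and -0.68 ± 0.40 for miR-30c-2-3p (adjusted p = 0.283). Without day 24 it was -2.03 ± 0.58 for miR-30a-5p (adjusted p = 0.132) and -2.85 ± 0.73 for miR-30c-2-3p (adjusted p = 0.108).

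miR-30a-3p had -1.15 ± 0.35 (adjusted p = 0.112) and stood at 0.640 (0.578 to 0.708) of its day 0 RPM at day 24. On a log2 day scale, which gives the first interval more weight, miR-30a-5p (-1.56 ± 0.24, adjusted p = 0.00159), miR-30a-3p (-1.15 ± 0.31, adjusted p = 0.0227) and miR-30c-2-3p (-2.23 ± 0.28, adjusted p = 5.45e-04) fell. That scale called 22.5% of all miRNAs tested, with 49 of 391 fallen and 39 risen, and 3 of the 8 arms. All 3 derive from the hairpins on chromosome 1. The guide miR-30c-5p, which can come from Mir30c-2 there or from Mir30c-1, was not called on that scale (0.46 ± 0.37, adjusted p = 0.423).

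miR-30b-5p had a fitted change of 0.91 ± 0.39 (adjusted p = 0.219) and was 2.34 times (2.09 to 2.62) its day 0 RPM at day 24, with its highest level at day 17. Its TMM-scaled levels were 167 CPM at day 0, 225 CPM at day 6 and 286 CPM at day 24. miR-30c-5p was 2.86 times (2.77 to 2.97) its day 0 RPM at day 6 and 1.97 times (1.90 to 2.05) at day 24, with a fitted change of 0.18 ± 0.43 (adjusted p = 0.821). TMM scaling made these steps smaller, at 1571, 2804 and 2272 CPM on days 0, 6 and 24. miR-30e-5p was 1.84 times (1.80 to 1.89) its day 0 RPM at day 6 and 1.17 times (1.14 to 1.21) at day 24, with -0.23 ± 0.33 (adjusted p = 0.700). On the TMM scale its day 24 level lay below that of day 0, at 3326, 3820 and 2864 CPM on days 0, 6 and 24. For these arms the first step lay on both scales opposite to that of miR-30a-5p and miR-30c-2-3p, and these ratios compare single libraries.

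miR-30e-3p was 4.06 times (3.28 to 5.07) its day 0 RPM at day 6, at 37.6 CPM on day 0 and 95.1 CPM on day 6 after TMM scaling. It then stood at 0.491 (0.404 to 0.596) of its day 6 RPM at day 24. Its linear change was -0.22 ± 0.67 (adjusted p = 0.868). Without day 0 it fell, by -1.22 ± 0.43 (adjusted p = 0.0392), the only arm called in that fit, where 15% of all miRNAs were. miR-30d-5p had -0.38 ± 0.33 (adjusted p = 0.521) and 1.01 times (0.999 to 1.03) its day 0 RPM at day 24, but 13631 CPM on day 0 and 10136 CPM on day 24 after TMM scaling.

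The other miRNAs of the reported Runx2-targeting group were miR-23a-3p, miR-34c-5p, miR-133a-3p, miR-135a-5p, miR-137-3p, miR-204-5p, miR-205-5p, miR-217-5p, miR-218-5p and miR-338-3p. With miR-30c-5p they make 11, of which 6 were tested for the day trend and 0 were called, against 2.3% of all miRNAs, at a median of 0.70. Between calvaria and MC3T3, 6 were tested, 3 were higher and 1 was lower in calvaria, at a median of 0.83 beside 0.06 over all miRNAs. Of all miRNAs tested 64.1% were called, 35.5% higher and 28.7% lower, so 4 of 6 is near that share. These counts and the median include miR-217-5p, which passed the filter only through calvaria, where it is high. Its call was all but set by the filter and is no support for a difference of the group. miR-23a-3p was higher, at 6855 ± 2412 RPM in calvaria and 1586 ± 369 RPM in MC3T3 (log2 1.91 ± 0.24, adjusted p = 4.04e-05). miR-133a-3p, also a striated muscle miRNA, was higher at 37.1 ± 11.6 RPM in calvaria and 4.17 ± 1.81 RPM in MC3T3 (adjusted p = 3.90e-05). miR-217-5p, tested through its calvaria counts alone, had 48.0 ± 37.3 RPM there and 0 counts in all MC3T3 libraries, at least 272-fold higher in calvaria against a limit of 3 counts over those 5 libraries. At that bound it is still the highest of the 6, so the median of 0.83 is the same by construction. miR-34c-5p, a target of p53, was lower at 347.9 ± 38.9 RPM in calvaria and 10792 ± 2443 RPM in MC3T3 (log2 -5.14 ± 0.24, adjusted p = 1.57e-08).

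Likeness of pattern was measured as the root mean square difference between log2 TMM-scaled CPM, each centred on its mean over the 8 libraries, and is a description. For miR-30a-5p the closest arms of the family were miR-30a-3p (0.23) and miR-30c-2-3p (0.24), and the farthest was miR-30b-5p (1.57). Among 170 other miRNAs with a mean of at least 100 RPM, the closest to miR-30a-5p were miR-143-5p, let-7c-2-3p and let-7a-1-3p (0.29 each, against a median of 1.01). Both let-7 arms had nearly the same values and may hold divided reads. For miR-30d-5p they were let-7e-5p (0.13), miR-214-5p (0.14) and miR-106b-3p (0.16), against a median of 0.65. For miR-30e-5p they were miR-152-5p (0.17), miR-214-3p (0.20) and miR-574-5p (0.21), against a median of 0.64, and within the family miR-30c-5p (0.25) and miR-30d-5p (0.27) were closest.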

How the data were processed

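Small RNA was sequenced from 3 calvaria libraries and 5 MC3T3 libraries. The kit was NEBNext Small RNA, per the labels' protocols. The raw table that the authors deposited holds expected counts per mature arm and hairpin. Their deposited RPM table differs from each raw value divided by the sum of its column by at most 0.013 RPM. The submitters' processing notes name cutadapt 0.9.5, Bowtie 0.12.7 and mm10, with no role or order. Which quantifier and miRBase version made the counts is not stated there. MC3T3 column names carry a day 3 lower than the sample titles, which set the days here. The mark "veh" on the 4 later names is unexplained.

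Counts were summed per mature miRNA and rounded. Tests used edgeR 4.0.16 (R 4.3.3) with quasi-likelihood fits, TMM factors and Benjamini-Hochberg adjustment. Standard errors of edgeR values were back-calculated, as the size of the log2 value divided by the square root of its F statistic. The day trend took miRNAs reaching 10 counts in 2 or more of the MC3T3 libraries, and the comparison with calvaria those reaching it in 3 or more of all 8. DESeq2 1.42.0, limma 3.58.1 on log2(RPM + 1), other factors, filters and left-out libraries served as alternatives, with the filter lowered to 2 libraries where a calvaria library was left out or only 2 MC3T3 days were used. Fits were checked on simulated counts, but no outcome of that check is given here and none is relied on. Intervals are exact 95% Poisson or binomial intervals. Reads carry no molecular identifiers, so intervals and limits of 3 counts cover counting error only. All 8 arms and the other arms of their hairpins were named, with the called miRNAs of the Runx2-targeting group and the 3 miRNAs closest in pattern to each of miR-30a-5p, miR-30d-5p and miR-30e-5p. Members and lists were chosen with earlier results of these data known. miR-384-5p was added for its seed.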

Additional observations from a re-analysis of the deposited data

How the results depend on the processing

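No paired analysis was possible because each MC3T3 day has 1 library and the labels number no replicates. Between calvaria and MC3T3, miR-30a-5p, miR-30a-3p and miR-30b-5p kept their direction and call under all 19 alternatives each, with adjusted p up to 0.0384, 0.0229 and 0.00242 in that order. miR-30c-2-3p lost its call under 9 of 19, and miR-30e-3p gained one under 9 of 19. The arms called were 4, but 7 (1 higher, 6 lower) with upper quartile factors, where 142 miRNAs were higher and 192 lower in calvaria, against 167 and 135 with TMM. The median difference of all miRNAs was then -0.37, against 0.06 with TMM and 0.25 with library totals. A minimum of 100 counts called 156 miRNAs in place of 302. Without single libraries 257 to 324 miRNAs and 3 to 5 arms were called; the fits without a calvaria library, which give the lowest of both, also lowered the filter to 2 libraries. miR-30d-5p turned to 0.05 with library totals and with limma (both pseudocounts). miR-30e-5p turned to 0.08 with library totals, 0.09 with limma (both pseudocounts), 0.06 with DESeq2 size factors and with its Wald test, 0.01 without day 6 and 0.02 without calvaria 3 (filter in 2 libraries), in a range from -0.23 to 0.02 without single libraries (-0.13 without day 10).

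With day, the 9 miRNAs called became 0 with library totals (38 higher and 25 lower at an unadjusted p under 0.05) and with limma (47 and 24 at a pseudocount of 1, 47 and 23 at 10), 33 with the DESeq2 Wald test, 17 with no filter, 1 with a minimum of 100 counts, 14 with entries per precursor, 88 on a log2 day scale and 0 to 57 without single days (57 without day 0, 0 without day 6, 17 or 24, and 14 without day 10). Arms called were 3 on the log2 day scale and 0 to 1 without single days. The median change of all miRNAs was 0.13 with library totals. Without single days miR-30c-5p ran from -0.39 to 0.47 and miR-30e-3p from -1.22 to 0.28. miR-30c-5p turned to -0.39 and miR-30d-5p to 0.12 without day 0. miR-30e-5p turned to 0.02 with library totals and 0.07 with limma (both pseudocounts). miR-30e-3p turned to 0.25 and 0.16 with limma (pseudocounts of 1 and 10), 0.45 on the log2 day scale, 0.28 without day 6 and 0.14 without day 17.

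The log2 ratio differences, without single libraries, ran from -0.11 to 0.10 for miR-30a-5p to miR-30a-3p (0.08 without day 0 and 0.10 without calvaria 2), -1.21 to -0.70 for miR-30e-5p to miR-30e-3p, 0.38 to 1.05 for miR-30c-5p to miR-30c-2-3p, -1.28 to -0.88 for miR-30a-5p to miR-30e-5p and -1.99 to -1.55 for miR-30d-5p to miR-30b-5p. With a library left out, the exact test cannot pass the threshold. The causes of these changes were not tested.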
